A study of Mus musculus with 16 samples.

Results

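Transcripts of 10 G protein-coupled receptors of lymphocytes were followed in group 2 innate lymphoid cells (ILC2) of the mouse duodenum: the sphingosine 1-phosphate receptors S1pr1 and S1pr4, the lysophospholipid receptors Lpar6, P2ry10 and Gpr174, the oxysterol receptor Gpr183, the acid-sensing receptors Gpr65 and Gpr132, and the receptors Gpr18 and Gpr171, which are often listed as orphans. They were chosen by symbol from the gene names of the count table, as receptors of lymphocytes with lipid or uncertain ligands, and make up 10 of its 53465 genes. The 16 libraries fell into 4 genotypes of 4, all from untreated, specific-pathogen-free C57BL/6 mice of 6 to 10 weeks whose Il13 gene carried the smart13 reporter on both alleles (Il13 smart13/smart13). WT had no other change, Alox5 KO was also Alox5 -/-, Il25 KO was also Il25 -/- with Arg1 Yarg/Yarg, and St2 KO was also St2 -/- with Arg1 Yarg/Yarg, so the Arg1 reporter accompanied the deletion in both of the last genotypes and cannot be told apart from it in comparisons with WT or Alox5 KO. Cells came from the first 5 cm of the small intestine and were sorted by flow cytometry with a gate not given in the sources used here, and the sources used here do not tell libraries of separate mice from repeats of one sample, so that p-values rest on a spread that may be technical.

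ILC2 are tissue-resident lymphocytes that make type 2 cytokines. The receptors followed here couple extracellular lipids, protons or peptides to G proteins. Sphingosine 1-phosphate guides lymphocytes out of tissues, and its receptor S1PR1 is held inside the cell by CD69. Oxysterols attract cells bearing GPR183 to the lymphoid structures of the gut. Lysophosphatidylserine acts through P2RY10, GPR174 and GPR34, and lysophosphatidic acid through LPAR6. GPR65 raises cyclic AMP in acid surroundings, and GPR132 has been linked to oxidised fatty acids and lysophospholipids. N-arachidonyl glycine and resolvin D2 have been proposed as GPR18 ligands. Of the deleted genes, Alox5 encodes 5-lipoxygenase, which starts leukotriene synthesis and takes part in resolvin synthesis, Il25 encodes a cytokine of epithelial tuft cells, and St2 (Il1rl1) encodes the receptor of IL-33.

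The libraries held between 2086864 and 3216937 gene counts, so that 3 counts, taken as the lowest level that can be told from 0, corresponded to 0.933 to 1.44 CPM (counts scaled to a common library total). Levels are CPM of the column totals as mean ± SD with n = 4, and differences are log2 fold changes ± SE from an edgeR quasi-likelihood model of all 16 libraries, with Benjamini-Hochberg adjustment over 11742 tested genes and calls at an adjusted p under 0.05. The sample codes formed 3 sets: TS with every genotype's replicates 1 and 2, TT with replicates 3 and 4 of Alox5 KO and WT, and TY with replicates 3 and 4 of St2 KO and Il25 KO. The 4 TY libraries had at least 982 counts of Xist and the other 12 at most 7, so TY was taken to be female and the rest male, and set was a term of the model. The labels were checked on the targeted genes: Alox5 was at 9.84 ± 3.39 CPM in Alox5 KO and 96.2 ± 32.8 CPM in WT, Il25 was at 0 counts in every library, WT included, and checked nothing, and Il1rl1 was at 173 ± 37.6 CPM in St2 KO and 216 ± 34.7 CPM in WT, so that total Il1rl1 counts did not show the St2 deletion. Summed ILC2 markers were at 6705 to 8637 CPM in all libraries. Cd4, Eomes, Csf1r and Adgre1 did not exceed 2.04 CPM in any, but the lists they come from held other transcripts. Over the libraries, summed T cell markers were at 479 to 747 CPM and those of natural killer cells and ILC1 at 440 to 810 CPM. Summed macrophage and dendritic cell markers were at 17.5 to 125 CPM. B and plasma cell markers were present, at 2322 to 3214 CPM in most libraries. They were lower, at 992 to 1069 CPM, in Alox5 KO replicates 1 and 2 and St2 KO replicate 1, with 2285 CPM in St2 KO replicate 2.

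By edgeR, 1 receptor differed between genotypes: Gpr18 was 5.24-fold higher in Alox5 KO than in WT and 3.64-fold higher than in St2 KO. These comparisons called 0.102% and 0.477% of all tested genes. The Gpr18 call was lost in 2 of 28 alternative settings against WT and in 6 of 27 against St2 KO. The other 8 tested receptors were not called by edgeR in any of the 6 comparisons between genotypes, DESeq2 also called Gpr132 in Il25 KO against WT, and Gpr174 was too low to test. In WT the transcripts covered a wide range per length, from Gpr65, among the most abundant transcripts of these cells, to Gpr174 at the limit of detection.

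To show where the finding lies, the 250 bases before the RefSeq start of Gpr18 and of its neighbour Gpr183 are given with those of Gpr65 and P2ry10, the pair of receptors with the highest correlation across libraries. All are RefSeq promoter windows on GRCm38.p6, written 5′ to 3′ on the gene's strand, and capitals mark matches to 6 short motifs searched on both strands. The Gpr18 window is chr14:121915889-121916138 on the minus strand, Gpr183 is chr14:121965194-121965443 on the minus strand, Gpr65 is chr12:98268385-98268634 on the plus strand, and P2ry10, at the first of its 2 starts, is chrX:107088242-107088491 on the plus strand.
Gpr18: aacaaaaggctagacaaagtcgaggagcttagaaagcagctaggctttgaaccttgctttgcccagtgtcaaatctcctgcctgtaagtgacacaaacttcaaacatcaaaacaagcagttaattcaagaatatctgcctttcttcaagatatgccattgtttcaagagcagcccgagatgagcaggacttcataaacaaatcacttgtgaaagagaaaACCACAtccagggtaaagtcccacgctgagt
Gpr183: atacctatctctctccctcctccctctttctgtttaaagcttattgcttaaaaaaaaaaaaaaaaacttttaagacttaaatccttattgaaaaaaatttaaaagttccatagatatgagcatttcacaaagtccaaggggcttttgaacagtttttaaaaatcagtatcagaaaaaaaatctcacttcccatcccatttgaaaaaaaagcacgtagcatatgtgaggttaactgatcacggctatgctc
Gpr65: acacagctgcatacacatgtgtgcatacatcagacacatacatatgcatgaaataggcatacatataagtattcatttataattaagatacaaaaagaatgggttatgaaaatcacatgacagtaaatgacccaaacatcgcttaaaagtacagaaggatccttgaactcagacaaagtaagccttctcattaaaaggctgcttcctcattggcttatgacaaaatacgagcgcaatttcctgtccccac
P2ry10: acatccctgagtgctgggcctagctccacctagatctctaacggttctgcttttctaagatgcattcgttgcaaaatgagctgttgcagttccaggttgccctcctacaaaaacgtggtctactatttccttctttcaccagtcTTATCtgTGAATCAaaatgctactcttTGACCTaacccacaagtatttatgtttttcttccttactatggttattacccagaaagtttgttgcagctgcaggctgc

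RefSeq windows were found for 8 of the 10 receptors. The motifs and the share of all 32851 windows of that length that held each were AP-1 (TGANTCA, 6.75%), the core of a cyclic AMP response element (TGACG, 17.8%), GATA (GATAA, 22.6%), the ROR core (AGGTCA, 14%), RUNX (TGTGGT, 14%) and KLF (CACCC, 52%). The Gpr18 window held 1 match, to RUNX on the opposite strand, 31 to 26 bases before the start, and the Gpr183 and Gpr65 windows held none. The P2ry10 window held AP-1, which matches itself on both strands, 99 to 93 bases before the start, GATA at 106 to 102 and the ROR core at 79 to 74. The Gpr132 window, whose last bases lie in an annotated exon, held the ROR core, the cyclic AMP element core, RUNX and KLF. These matches describe letters only. The RefSeq start of Gpr18 lay 107 bases upstream of the GENCODE start, so the 2 annotations place its promoter differently.

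Gpr18 lies on chromosome 14 (121911253 to 121915781, minus strand, GRCm38), inside Ubac2, which is read from the opposite strand (121878620 to 122021034), and no exon of one overlaps an exon of the other. Gpr18 was at 20.9, 14.7, 14.7 and 11.9 CPM in the 4 WT libraries and at 96.8, 66.1, 103.5 and 55.6 CPM in the 4 Alox5 KO libraries. Every Alox5 KO library lay above every WT library, and above every library of the other genotypes. In Il25 KO it was at 42.9, 36.0, 19.1 and 21.2 CPM, and in St2 KO at 16.9, 25.5, 27.0 and 6.54 CPM. Both of these groups overlapped WT and each other, although in set TS, with 2 libraries each, both Il25 KO libraries lay above both WT libraries, at means of 39.4 and 17.8 CPM, a ratio of 2.22. The fitted log2 fold change from WT was 1.23 ± 0.40 in Il25 KO (95% interval 0.39 to 2.08, edgeR adjusted p = 0.2875) and 0.53 ± 0.43 in St2 KO (95% interval -0.37 to 1.43, edgeR adjusted p = 0.8336), neither called.

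Between Alox5 KO and WT, Gpr18 rose from 15.5 ± 3.81 to 80.5 ± 23.3 CPM, a log2 fold change of 2.39 ± 0.30 (95% interval 1.76 to 3.02, edgeR adjusted p = 0.000532). It was the 1 receptor of 9 called, where 0.102% of all tested genes were called and 0.0341% were called higher. Against St2 KO the difference was 1.86 ± 0.34 (95% interval 1.15 to 2.58, edgeR adjusted p = 0.01078), again 1 of 9, with 0.477% of all genes called and 0.298% called higher. At an unadjusted p under 0.05 there were 2 of 9 against WT, Gpr18 and Gpr132, beside 7.16% of all genes, and 3 of 9 against St2 KO, with Gpr65 and Gpr171, beside 11.5%. The comparisons of Alox5 KO with WT, St2 KO and Il25 KO share the Alox5 KO libraries. Against Il25 KO the difference was 1.16 ± 0.32 (95% interval 0.48 to 1.84, edgeR adjusted p = 0.193), not called, although the ranges did not overlap. In the test for any difference among the 4 genotypes Gpr18 had an edgeR adjusted p of 0.0003561 and was the 1 receptor of 9 called, beside 1.13% of all genes.

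The Gpr18 difference between Alox5 KO and WT was present in both sets that hold these genotypes. In TS the means were 81.4 and 17.8 CPM, a ratio of 4.59, and in TT they were 79.6 and 13.3 CPM, a ratio of 6.00. The difference between the sets' log2 fold changes was 0.42 ± 0.69, and was not called (edgeR adjusted p = 1). The set TS fitted alone gave 2.20 with an edgeR adjusted p of 0.09504, and TT alone gave 2.62 with 0.0225. Against St2 KO the call was lost without Alox5 KO replicate 1 (1.68, edgeR adjusted p = 0.1241), without St2 KO replicate 1 (1.63, 0.09529) and without St2 KO replicate 2 (1.94, 0.08002).

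**Figure D1:**
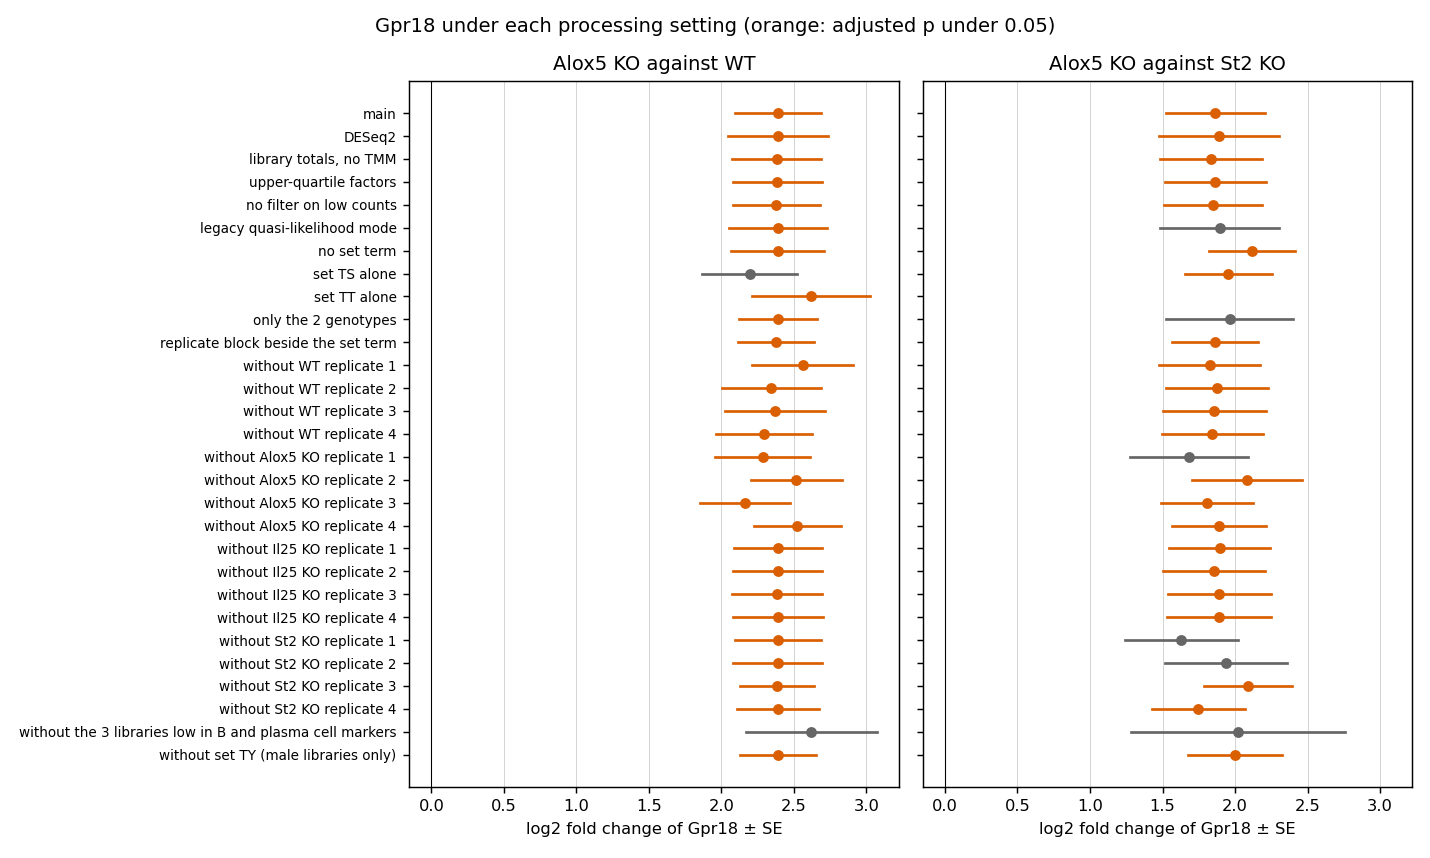
Log2 fold change of Gpr18 ± SE (horizontal axis) under each processing setting (rows), for Alox5 KO against WT (left) and Alox5 KO against St2 KO (right), in orange where the adjusted p was under 0.05. All values against WT lie between 2.16 and 2.62 and those against St2 KO between 1.63 and 2.12, and the grey points mark settings in which the call was lost.

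Markers of other cells were read beside Gpr18, which is also expressed by T cells and B cells. The summed B and plasma cell markers were at 992 and 1069 CPM in Alox5 KO replicates 1 and 2 and at 2599 and 3214 CPM in replicates 3 and 4, against 2725 to 3178 CPM in WT. Gpr18 was at 96.8 and 66.1 CPM in the Alox5 KO libraries with low sums and at 103.5 and 55.6 CPM in the others. Without the 3 libraries low in these markers the log2 fold change against WT was 2.62, and the edgeR adjusted p was 0.07055 with 13 libraries left. Summed T cell markers were at 515 to 747 CPM in Alox5 KO and 554 to 605 CPM in WT. Of that list, Cd8a was at 0 in both, while Cd3e was at 1.19 to 28.3 CPM in Alox5 KO and 9.81 to 24.8 CPM in WT. The summed markers of natural killer cells and ILC1 were at 635 to 810 CPM in Alox5 KO and 643 to 694 CPM in WT. In 2 lists the ranges of Alox5 KO and WT did not overlap: summed epithelial markers were at 12.8 to 24.0 CPM in Alox5 KO and 24.7 to 56.8 CPM in WT, and those of eosinophils and granulocytes at 0 to 1.19 CPM and 6.13 to 17.4 CPM. The part of these cells in the Gpr18 difference was otherwise not tested, and in RNA of sorted bulk cells more cells that express a gene and more RNA per cell cannot be told apart.

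The tested genes around Gpr18 were not called by edgeR between Alox5 KO and WT. Gpr183 lies on the same strand within Ubac2 (121952551 to 121965195), and its log2 fold change between Alox5 KO and WT was -0.03 ± 0.16 (95% interval -0.36 to 0.30). Ubac2, which hosts both, had a log2 fold change of -0.14 ± 0.11. Of the 13 other tested genes within 1 Mb of Gpr18, edgeR called 0, beside 0.102% of all genes, and had 2 at an unadjusted p under 0.05, beside 7.16% of all genes, both lower in Alox5 KO: Farp1, with a log2 fold change of -1.92 ± 0.77, and Clybl, with -3.24 ± 0.79 (edgeR adjusted p = 0.163). Both are named after their values were seen. The deleted Il25 gene is also on chromosome 14, 67.0 Mb from Gpr18 and Gpr183 and 18.3 Mb from Lpar6.

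**Figure D2:**
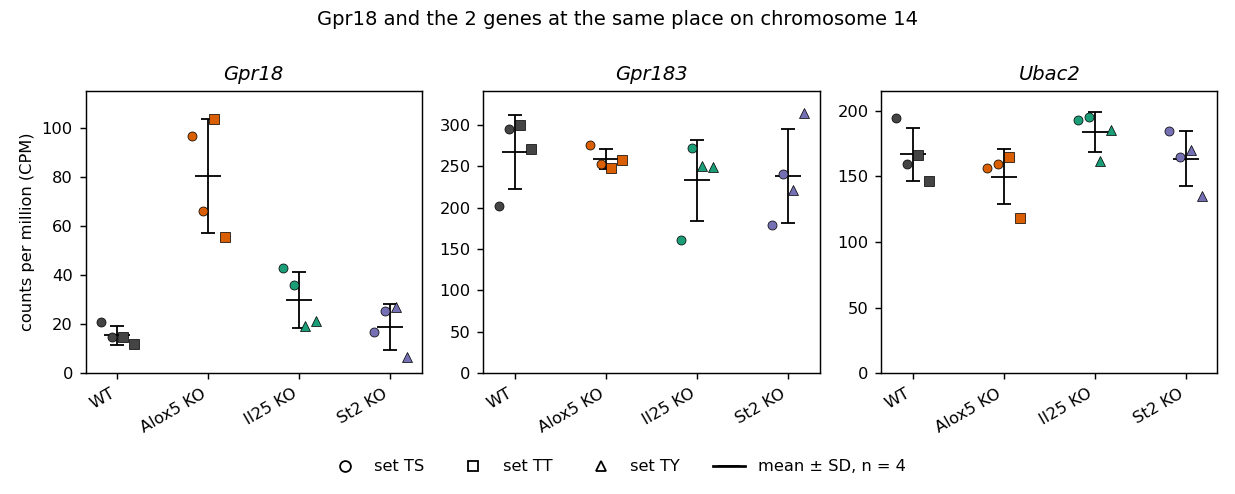
CPM (vertical axis) of Gpr18, Gpr183 and Ubac2, 3 genes at 1 place on chromosome 14, in each library by genotype, with marker shapes for the sample-code sets and bars for mean ± SD (n = 4). Gpr18 is at 55.6 to 103.5 CPM in Alox5 KO and at most 42.9 CPM elsewhere, while the genotypes overlap for Gpr183 and Ubac2.

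The transcripts most like Gpr18 over the 16 libraries were Dtx1 (Pearson r = 0.857), Ctse (0.787) and Sptssa (0.779), out of 9975 genes whose average log2 CPM was 3 or more. Dtx1 encodes the Notch pathway ubiquitin ligase Deltex, Ctse the protease cathepsin E and Sptssa a small subunit of serine palmitoyltransferase, the enzyme that starts sphingolipid synthesis. Dtx1 was at 228 ± 23.6 CPM in WT and 328 ± 38.0 CPM in Alox5 KO, Ctse at 63.6 ± 13.2 and 237 ± 31.2 CPM, and Sptssa at 388 ± 46.0 and 487 ± 46.1 CPM. In Il25 KO and St2 KO, Dtx1 was at 275 ± 16.7 and 270.5 ± 67.3 CPM. Ctse was at 77.6 ± 22.0 and 145 ± 56.3 CPM there, and Sptssa at 419.5 ± 15.2 and 383 ± 62.3 CPM. Ctse was thus above its WT mean in St2 KO, where Gpr18 overlapped WT. The coefficients describe libraries that share 4 genotypes and carry no test.

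In WT the receptors were ordered per length of annotated exon, as CPM per kilobase. Gpr65 was highest at 165 ± 9.76, rank 151 of 21876 protein-coding genes. P2ry10 at 135 ± 19.1 and Gpr171 at 130 ± 8.08 followed, at ranks 220 and 236, and did not differ beyond their spread. Gpr183 was at 92.4 ± 15.5. Gpr132 at 52.8 ± 5.91 and Lpar6 at 49.8 ± 4.03 did not differ beyond their spread either. Gpr18, at 10.4 ± 2.54, held rank 5605, and S1pr4 at 5.43 ± 1.08 and S1pr1 at 1.25 ± 1.43 were lower. In Alox5 KO Gpr18 reached 53.7 ± 15.5 CPM per kilobase, in the range that Gpr132 and Lpar6 had in WT.

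**Figure D3:**
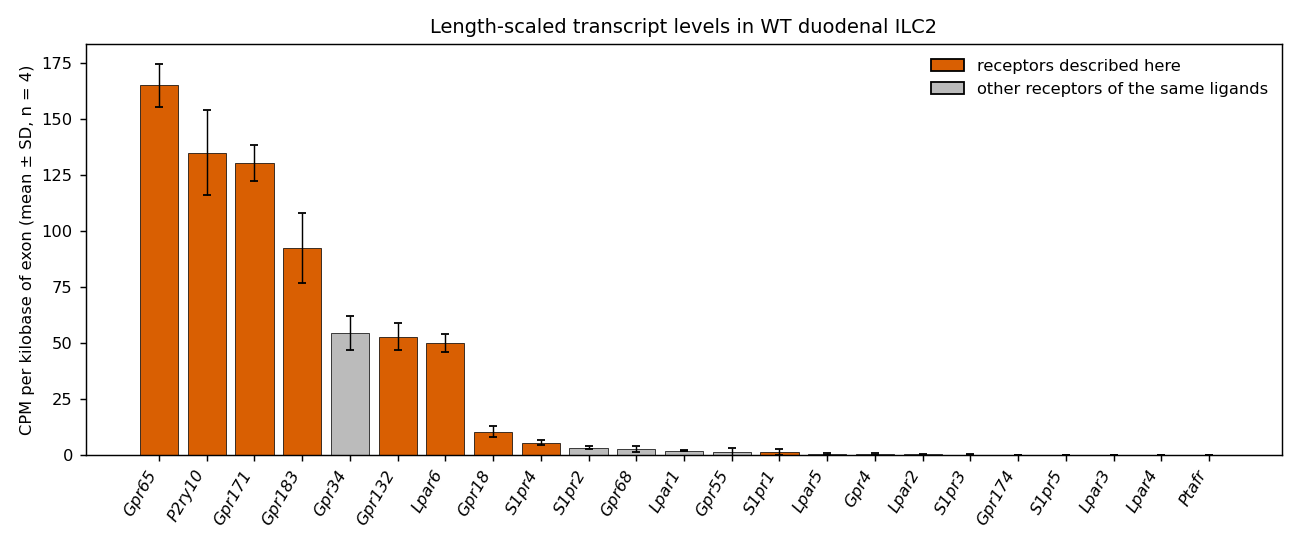
Mean CPM per kilobase of exon ± SD (n = 4, vertical axis) in WT for the receptors described here (orange) and for other receptors of the same ligands (grey). Gpr65, P2ry10, Gpr171 and Gpr183 are the 4 highest, at 92.4 to 165, and of the other receptors only Gpr34, at 54.3, is above 4.

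The sphingosine 1-phosphate receptors were low. S1pr1 (chromosome 3, 115710433 to 115715072), the egress receptor, had 0 to 49 counts per library. It was at 2.70, 0.771, 1.51 and 10.2 CPM in WT, at 7.57, 0.386, 1.98 and 0 CPM in Alox5 KO, at 0, 17.98, 8.96 and 2.87 CPM in Il25 KO and at 10.1, 8.08, 7.31 and 0.344 CPM in St2 KO. Each genotype held at least 1 library under 1 CPM and at least 1 above 7 CPM, and the groups overlapped throughout. The SE of its log2 fold changes was 0.76 to 1.18, and the 95% interval against WT was -2.94 to 1.96 in Alox5 KO, -0.73 to 3.84 in Il25 KO and -0.99 to 3.62 in St2 KO, and no difference was called. Within Il25 KO alone its libraries ran from 0 to 17.98 CPM. S1pr4 (chromosome 10, 81497747 to 81500132), a receptor mainly of blood cells, was steadier, at 12.95 ± 2.58 CPM in WT, 11.7 ± 2.97 in Alox5 KO, 14.9 ± 5.51 in Il25 KO and 19.2 ± 6.88 in St2 KO, with overlapping ranges in all pairs. Of their relatives, S1pr2 was at 25.7 ± 4.99 CPM in WT and S1pr5 at 0.

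Of 13 tested genes of sphingosine 1-phosphate synthesis, breakdown and export, edgeR called 1 in the 6 comparisons. Acer2, an alkaline ceramidase that releases sphingosine, was at 172 ± 19.4 CPM in Il25 KO against 88.9 ± 42.4 CPM in St2 KO (log2 fold change 1.02 ± 0.24, edgeR adjusted p = 0.04606), in a comparison that called 1.23% of all genes. At an unadjusted p under 0.05 between 0 and 3 of the 13 differed, where 7.16% to 11.5% of all genes did, and the list's median log2 fold changes ran from -0.05 to 0.03, beside -0.01 to 0.01 for all genes.

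Among 11 tested genes of tissue exit and retention, Cd69 and Itgae were called. Cd69, which binds S1PR1 and keeps it off the cell surface, was at 300 ± 20.0 CPM in WT, 306 ± 43.1 in Alox5 KO, 327 ± 19.9 in Il25 KO and 146 ± 64.4 in St2 KO. Its log2 fold change in St2 KO against WT was -1.17 ± 0.22 (edgeR adjusted p = 0.01916, where 0.307% of all genes were called). Cd69 was also called lower in St2 KO than in Il25 KO (edgeR adjusted p = 0.0005682, where 1.23% of all genes were called). The same held against Alox5 KO (edgeR adjusted p = 0.01194, where 0.477% were called). Itgae, the integrin chain that binds E-cadherin, was higher in Il25 KO than in St2 KO by 1.94 ± 0.46 (edgeR adjusted p = 0.03909), at 21.8 ± 14.9 against 5.72 ± 8.12 CPM. In that comparison 5 of the 11 had an unadjusted p under 0.05, beside 11.2% of all genes. Between Alox5 KO and Il25 KO there were 4 of 11, beside 9.34%. The other comparisons had 1 to 3 of 11, beside 7.16% to 11.5% of all genes. Klf2, a transcription factor that drives S1pr1, was at 21.0 ± 11.4 CPM in WT and its log2 fold changes were at most 0.38 in size, none called.

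The lysophospholipid receptors divided into 2 well-expressed genes and 1 near 0. P2ry10 (chromosome X, 107088492 to 107104974), a lysophosphatidylserine receptor, was at 402 ± 56.8 CPM in WT, 454 ± 83.1 in Alox5 KO, 457 ± 56.5 in Il25 KO and 444 ± 66.4 in St2 KO. Its 16 libraries spanned 334 to 542 CPM and all genotypes overlapped. Its log2 fold changes lay between 0.02 and 0.19, and their 95% intervals between -0.33 and 0.52. Gpr174 (chromosome X, 107255878 to 107296769), a receptor of the same lipid, had 3 counts in all, 1 each in WT replicates 1 and 2 and Il25 KO replicate 3, which is under the level that 3 counts per library allow. Gpr34, a further lysophosphatidylserine receptor, was at 114 ± 15.9 CPM in WT. It was 1 of 7 tested receptors of the same ligands as those described here. EdgeR called 0 of the 7 in every comparison, where 0.102% to 1.23% of all genes were called. At an unadjusted p under 0.05 there were 2 of 7 in Il25 KO against St2 KO and in Alox5 KO against St2 KO. Beside these stood 11.2% and 11.5% of all genes. The other comparisons had 0 or 1 of 7, beside 7.16% to 9.34% of all genes.

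Lpar6 (chromosome 14, 73237895 to 73243294) lies inside Rb1 on the opposite strand, and 408 bases, 7.56% of its exon length, overlap Rb1 exons. The libraries do not mark strand, so reads of that stretch cannot be told apart. Lpar6 was at 243, 261, 294 and 276 CPM in WT and at 269, 253, 262 and 267 CPM in Alox5 KO, which overlapped. It was at 238, 237, 165 and 217 CPM in Il25 KO and at 232.7, 208, 187 and 245 CPM in St2 KO. Every Il25 KO library lay below every WT and every Alox5 KO library. The fitted difference between Il25 KO and WT was -0.16 ± 0.12 (95% interval -0.42 to 0.10, edgeR adjusted p = 0.768), and in set TS, which both share, the means were 238 and 252 CPM. Rb1 was at 186 ± 21.3 CPM in WT and 180 ± 30.4 CPM in Il25 KO.

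Of 10 tested genes of lysophospholipid synthesis and breakdown, Abhd16a was called. It encodes a lipase that makes lysophosphatidylserine, and it was at 254 ± 26.0 CPM in Il25 KO against 194 ± 16.8 CPM in St2 KO (0.44 ± 0.11, edgeR adjusted p = 0.0473), where 1.23% of all genes were called. Across the comparisons 0 to 3 of the 10 had an unadjusted p under 0.05, beside 7.16% to 11.5% of all genes.

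Gpr183, the oxysterol receptor also known as EBI2, was at 202, 295, 299 and 270 CPM in WT and at 275, 253, 248 and 257 CPM in Alox5 KO. It was at 161, 272, 250 and 249 CPM in Il25 KO and at 178, 241, 221 and 314 CPM in St2 KO, and all genotypes overlapped. Its log2 fold changes against WT were -0.03 ± 0.16, -0.27 ± 0.19 and -0.29 ± 0.19 in Alox5 KO, Il25 KO and St2 KO, none called. The 6 listed genes of oxysterol metabolism, which include enzymes that make or break down its ligand, were all too low to test. Ch25h, which makes 25-hydroxycholesterol, had group means of at most 1.98 CPM, Cyp7b1, which adds the hydroxyl group at the next step, at most 4.10 CPM, and Hsd3b7, which breaks the ligand down, was at 0 in every library.

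Gpr132 (chromosome 12, 112850873 to 112868228, minus strand) was at 166, 130, 143 and 135 CPM in WT and at 160, 178, 233.2 and 238 CPM in Alox5 KO. In Il25 KO it had 192, 251, 370 and 337 CPM, and in St2 KO 197, 188, 334 and 210 CPM. Every library of Il25 KO and of St2 KO lay above every WT library, while Alox5 KO overlapped WT. The difference from WT was 0.81 ± 0.19 in Il25 KO (95% interval 0.41 to 1.21, edgeR adjusted p = 0.08884), 0.46 ± 0.19 in St2 KO (edgeR adjusted p = 0.6027) and 0.50 ± 0.16 in Alox5 KO (edgeR adjusted p = 0.4601), so none was called. In the comparison of Il25 KO with WT edgeR called 0 of 9 receptors and 0.417% of all genes, and 3 of 9 had an unadjusted p under 0.05 beside 9.23% of all genes. DESeq2 called 1 of the 9, Gpr132, with an adjusted p of 0.008686. Calls over all genes in this comparison ran from 9 to 95 across the processing settings, so edgeR's share does not stand for that of DESeq2.

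Gpr132 was also read by set. In Il25 KO the TS libraries averaged 222 CPM and the TY libraries 353 CPM, in St2 KO the means were 192 and 272 CPM, and in Alox5 KO the TS and TT means were 169 and 236 CPM. In WT the TS and TT means were 148 and 139 CPM. The fitted difference of TY from TS was 0.59 ± 0.14 (edgeR adjusted p = 0.1171) and that of TT from TS was 0.21 ± 0.16 (edgeR adjusted p = 0.8428), neither called. WT has no TY library, so within a set Il25 KO and WT could be compared in TS alone, where the log2 fold change was 0.62 (edgeR adjusted p = 0.6445). Without the set term it was 1.04 (edgeR adjusted p = 0.02042), and it passed the threshold as well without WT replicate 1 (1.02, 0.03066), without Il25 KO replicate 1 (0.97, 0.03628) and without St2 KO replicate 3 (0.88, 0.03717). Beside it, summed macrophage and dendritic cell markers, cells that also express Gpr132, were at 24.1 to 125 CPM in Il25 KO and 24.9 to 71.5 CPM in WT, with Csf1r at most 1.44 CPM and 0 CPM, and their part in the difference was not tested.

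**Figure D4:**
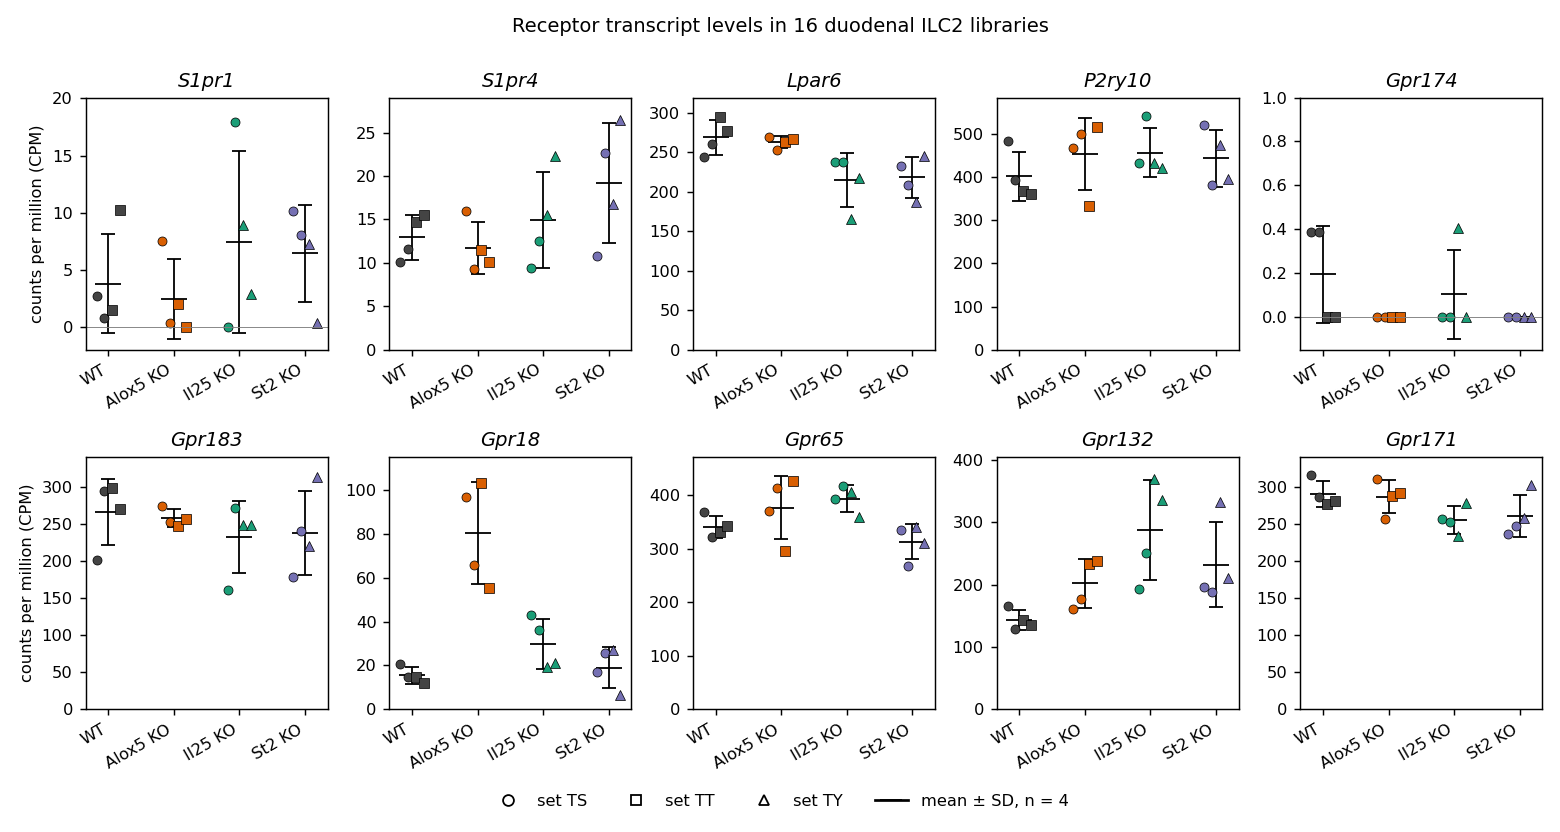
CPM (vertical axis, scaled separately for each receptor) of the 10 receptors in 16 libraries by genotype, with marker shapes for the sample-code sets and bars for mean ± SD (n = 4). Gpr18 stands apart in Alox5 KO, at 55.6 to 103.5 CPM, Gpr132 is at 188 CPM or above in Il25 KO and St2 KO and at most 166 CPM in WT, and the other receptors overlap between WT and each knockout, apart from Lpar6 in Il25 KO.

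Gpr65 (chromosome 12, 98268635 to 98276644, plus strand), the acid sensor that signals through cyclic AMP, was at 369, 322, 332 and 343 CPM in WT and at 371, 415, 297 and 427 CPM in Alox5 KO. It was at 394, 418, 406 and 359 CPM in Il25 KO and at 336, 269, 340 and 310 CPM in St2 KO. Every Il25 KO library lay above every St2 KO library, and the difference was 0.38 ± 0.12 (95% interval 0.14 to 0.62, edgeR adjusted p = 0.1532), not called. Between Il25 KO and St2 KO edgeR and DESeq2 each called 0 of 9 receptors, beside 1.23% of all genes by edgeR. At an unadjusted p under 0.05 there were 3 of 9, Gpr18, Gpr65 and Gpr132, beside 11.2% of all genes. Gpr4, a relative that also senses acid, was at 0.991 ± 0.961 CPM in WT.

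Of 17 tested genes of the cyclic AMP pathway, Nr4a1, an immediate early gene that cyclic AMP and other signals induce, was called. Across the comparisons 1 to 4 of the 17 had an unadjusted p under 0.05, beside 7.16% to 11.5% of all genes. Nr4a1 was at 965 ± 39.1 CPM in WT and 562 ± 79.7 CPM in St2 KO (-0.86 ± 0.13, edgeR adjusted p = 0.001554, where 0.307% of all genes were called). It was also lower in St2 KO than in Il25 KO and Alox5 KO. In the same comparison with WT edgeR and DESeq2 each called 0 of 9 receptors, and 2 of 9 had an unadjusted p under 0.05 beside 7.43% of all genes. Of 15 tested RGS proteins, receptor kinases and arrestins, 0 were called by edgeR in any comparison, beside 0.102% to 1.23% of all genes. At an unadjusted p under 0.05 there were 0 to 2 of 15, beside 7.16% to 11.5% of all genes. Rgs1, which shortens signals of Gi-coupled receptors, was at 601 ± 45.8 CPM in WT, and Gnai2, the main Gi subunit of lymphocytes, at 344 ± 24.7 CPM.

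Gpr171 (chromosome 3, 59096448 to 59101821, minus strand), a receptor reported to bind a neuropeptide, lies inside Med12l on the opposite strand without exon overlap. It was at 290 ± 17.98 CPM in WT, 287 ± 22.5 in Alox5 KO, 255 ± 18.6 in Il25 KO and 261 ± 28.8 in St2 KO, and the ranges of every pair overlapped. The 95% intervals were -0.19 to 0.18, -0.46 to -0.003 and -0.48 to -0.03 for the log2 difference from WT in Alox5 KO, Il25 KO and St2 KO, and its SE was the smallest of the 9 receptors in each comparison. The edgeR adjusted p was 0.5329 in Il25 KO and 0.6236 in St2 KO. Med12l was at 39.3 ± 8.08 CPM in WT. Of 11 other tested orphan, nucleotide or metabolite receptors of lymphocytes, edgeR called 0 in every comparison, beside 0.102% to 1.23% of all genes. At an unadjusted p under 0.05 there were 0 to 3 of 11, beside 7.16% to 11.5% of all genes.

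Across the 6 comparisons the 9 tested receptors had median log2 fold changes between -0.01 and 0.17, beside -0.01 to 0.01 for all tested genes, and their median SE was 0.14 to 0.19 beside 0.21 to 0.27. Between Alox5 KO and Il25 KO edgeR and DESeq2 each called 0 of 9, where edgeR called 0.375% of all genes, and 1 of 9, Gpr18, had an unadjusted p under 0.05 beside 9.34% of all genes. Ranges did not overlap for Gpr18 between Alox5 KO and each other genotype, for Lpar6 between Alox5 KO and both Il25 KO and St2 KO, for Gpr132 and Lpar6 between Il25 KO and WT, for Gpr132 between St2 KO and WT, and for Gpr65 between Il25 KO and St2 KO. Over all tested genes such a gap, in the higher direction, was seen in 1.76% for Alox5 KO and WT, 3.62% for Alox5 KO and Il25 KO, 5.10% for Alox5 KO and St2 KO, 2.55% for Il25 KO and WT, 3.63% for St2 KO and WT and 2.62% for Il25 KO and St2 KO, and in the lower direction in 4.23% for Il25 KO and WT.

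**Figure D5:**
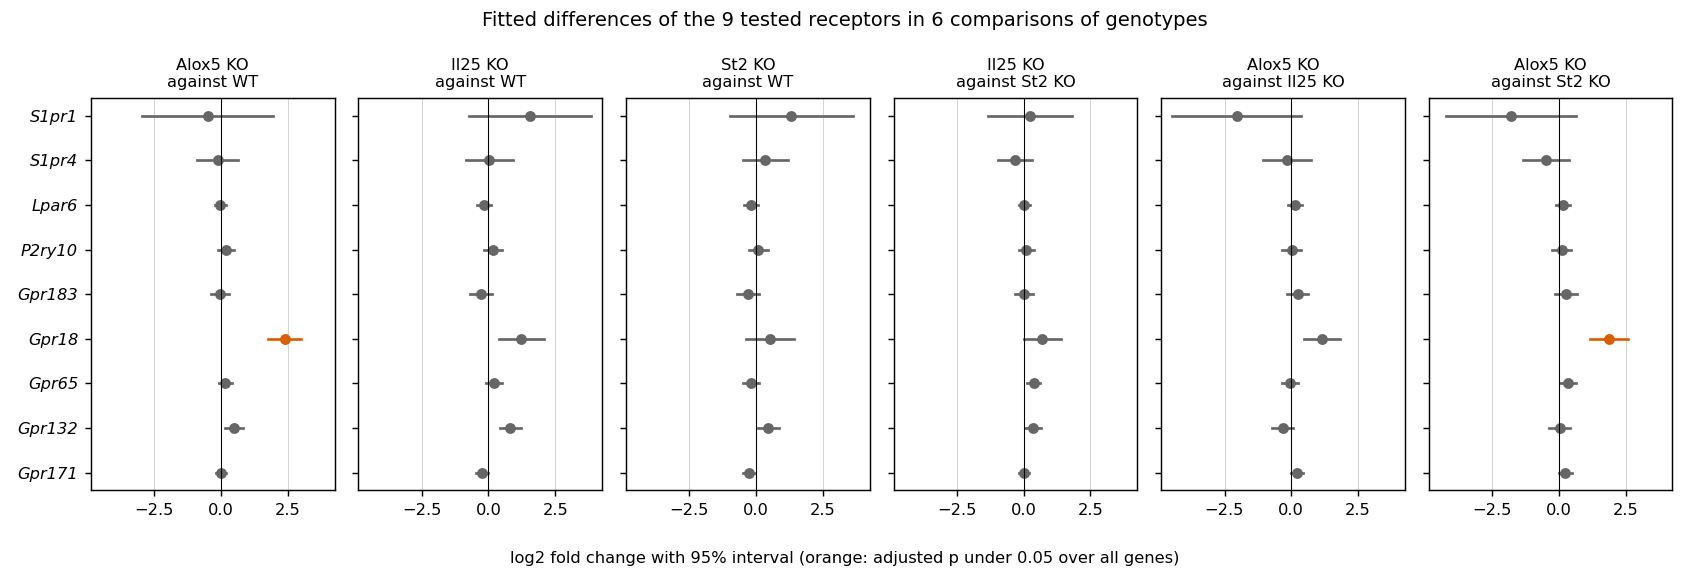
Log2 fold change with 95% interval (horizontal axis) of the 9 tested receptors (rows) in 6 comparisons of genotypes (panels), in orange where the adjusted p over all genes was under 0.05. Gpr18 is orange in Alox5 KO against WT (2.39) and against St2 KO (1.86), and the intervals of S1pr1 are the widest.

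Among the 36 pairs of tested receptors, Gpr65 and P2ry10 had the highest correlation across the 16 libraries. On log2 CPM Pearson's r was 0.757 and Spearman's rho was 0.726. Without the 2 libraries farthest from the median of Gpr65 r was 0.719, and within set TS, over 8 libraries, it was 0.778. TT and TY hold 4 libraries each and were not read separately. Gpr132 and Lpar6 had the lowest, with r = -0.712 and rho = -0.618, but without the 2 libraries farthest in Gpr132 r was -0.551 and within set TS it was -0.264. These coefficients too describe libraries that share genotypes and sets, and are given as a description without p-values.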

How the data were processed

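The authors deposited 1 table of gene counts per library, not scaled for depth or length. The submitters' processing notes name GRCm38, FastQC 0.11.3, Picard 1.134, HTSeq 0.4.1 and STAR 2.4.2a, with settings not given in the sources used here. Nextera XT libraries do not mark strand. Of 53471 rows, 6 with a repeated identifier were dropped, and rows without a symbol held 0.184% of the counts. Counts were fitted with edgeR 4.0.16 in R 4.3.3 (quasi-likelihood F test, robust, TMM scaling, default expression filter by genotype) on genotype and sample-code set, with 10 residual degrees of freedom. CPM used column totals, and exon lengths came from GENCODE M21. DESeq2 1.42.0, other scalings, filters and sets, and leaving out each library were alternatives, and 2 were added after the data were seen: without 3 libraries low in B and plasma cell markers, and without set TY. The receptors and gene lists were chosen with earlier results of these data known. All receptors are named, with list genes that were called, genes hosting a receptor, the 3 transcripts most like each called receptor, and deleted or reporter genes. List and relative genes given for context (Klf2, Gpr34, Gpr4, S1pr2, S1pr5, the oxysterol enzymes, Rgs1 and Gnai2) were picked after their values were seen. The procedure was tested on simulated counts.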

Additional observations from a re-analysis of the deposited data

Results flagged for a closer look

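Within the 38 groups of 4 libraries with nonzero spread, 3 had a library whose gap to the nearest of the others exceeded Dixon's critical share of the group's range, a gap that chance gives in about 1 in 20 groups. Gpr132 was at 333.5 CPM in St2 KO replicate 3, with the other St2 KO libraries at 188 to 210 CPM. P2ry10 was at 541.5 CPM in Il25 KO replicate 2, with the others at 421 to 434 CPM. Gpr174 was at 0.4073 CPM in Il25 KO replicate 3, which is 1 count, with the others at 0. Where only 1 library of a group holds a count the rule is always met, so the chance rate does not apply to this flag. Whether a difference between genotypes itself differed between sets was tested for Alox5 KO against WT in TT and TS and for Il25 KO against St2 KO in TY and TS, with 2 libraries of a genotype per set. By edgeR 0 of the 9 tested receptors were called in either test, and 0 had an unadjusted p under 0.05, but 0 of all 11742 genes were called as well, with 469 and 569 at an unadjusted p under 0.05.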

How the results depend on the processing

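For Alox5 KO against WT, the count of receptors called was 1 and became 0 in set TS alone (Gpr18 2.20, edgeR adjusted p = 0.09504) and without the 3 libraries low in B and plasma cell markers (2.62, 0.07055). Its value ran from 2.16 to 2.62 over 28 alternatives, and it kept its call with any 1 library left out (edgeR adjusted p 0.000117 to 0.00647). For Il25 KO against WT the count was 0 and became 1 with DESeq2 and with no set term, and ran from 0 to 1 with 1 library left out, in each case through Gpr132. For Alox5 KO against Il25 KO it was 0 and became 1 with no set term (Gpr18 1.41, 0.01713). For Alox5 KO against St2 KO it was 1 and became 0 in edgeR's legacy mode (Gpr18 1.89, 0.05607), with only the 2 genotypes (1.96, 0.1237) and without the 3 libraries (2.02, 0.6216), and ran from 0 to 1 with 1 library left out. For any difference it was 1 and became 2 with DESeq2 and with no set term. The cause was not tested. Of 1472 recomputed fold changes of the receptors, 1458 kept direction or stayed uncalled on the same side of the threshold, 8 fell below it, 6 passed it and 0 reversed, while 82 that were not called changed sign. Over all genes, calls ran from 3 to 53 for Alox5 KO against WT, 9 to 95 for Il25 KO against WT, 19 to 67 for St2 KO against WT, 30 to 246 for Il25 KO against St2 KO, 2 to 105 for Alox5 KO against Il25 KO, 11 to 124 for Alox5 KO against St2 KO and 43 to 299 for any difference. The replicate numbers were not taken to pair libraries. Same-numbered deviations from genotype means correlated between -0.0788 and 0.197 over 24 pairs, which shows no clear pairing but cannot exclude it. A replicate block beside the set term gave 2.38 for Gpr18 in Alox5 KO against WT (edgeR adjusted p = 0.0002831) and 1.86 against St2 KO (0.00516), and changed no call of a receptor. Depth limits Gpr174, with 3 counts in all.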
